A study of Mus musculus with 3 samples.

Results

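The iron handling genes described here are 10 genes taken by symbol from the deposited gene tables, out of 55536 annotated genes. They are Fth1 and Ftl1 (the heavy and light ferritin subunits), Slc40a1 (ferroportin), Slc11a1 and Slc11a2 (the transporters NRAMP1 and DMT1), Tfrc (transferrin receptor 1), Hmox1 (haem oxygenase 1), Cp (ceruloplasmin), Lcn2 (lipocalin 2) and Ireb2 (iron-regulatory protein 2). All 10 symbols matched a single gene identifier. The genes were taken by symbol and not by a rule on measured values, but earlier results of these data were known when they were chosen. The RNA came from nuclei of C57BL/6J bone-marrow-derived macrophages, which are primary cells cultured from mouse marrow, and was sequenced as total RNA after ribosomal RNA depletion. The labels name the fraction as nuclear in some fields and as nucleoplasmic in another. Every culture received lipid A, the lipopolysaccharide part recognised by TLR4, at 100 ng/ml during 12 h, then 12 h without it, then 100 ng/ml again over the last 15 min. The 3 libraries make 1 group of replicates 1, 2 and 3, and 1 µg of RNA went into replicates 1 and 3 but 500 ng into replicate 2. A single donor identifier is attached to all of them. The sources used here do not say if the marrow of separate mice was used, so every spread and p below covers these samples and may be technical. Untreated cells are not analysed here, and the values are levels in 1 condition, not responses to lipid A.

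Macrophages take up much of the body's iron by digesting old red cells, and then store it or return it to plasma. Haem oxygenase frees iron from haem, ferritin stores it, ferroportin exports it and ceruloplasmin oxidises it for loading onto transferrin. Transferrin receptor 1 and DMT1 bring iron in, and the iron-regulatory proteins, one of them encoded by Ireb2, bind RNA hairpins called iron-responsive elements. Bound at the 5′ end of an mRNA they are known to block its translation, and bound in the 3′ untranslated region (UTR) of Tfrc mRNA they are known to protect it from decay.

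These hairpins are the sequence feature by which several of the genes are known to be regulated, so the sites found in the annotated transcripts are shown here. Transcripts of GENCODE release M21 were searched on the transcript strand for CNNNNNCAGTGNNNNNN with at least 4 of 5 base pairs, G-T pairs included, between the 5 bases on either side of the loop. A match is a description of the letters and not a measured binding site. Elements with another loop sequence would be missed, so the sites of a gene need not be its full set. The letters given to the Tfrc sites follow their position here and are not established element names. Matches in a UTR were found for 5 of the 10 genes. The 30-base windows are given 5′ to 3′ in mm10, with the unpaired C and the loop CAGTGN in capitals.
Fth1 5′ UTR, chr19:9982732-9982761, + strand: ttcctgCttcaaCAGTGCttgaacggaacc
Ftl1 5′ UTR, chr7:45459778-45459807, − strand: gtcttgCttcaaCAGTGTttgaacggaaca
Slc40a1 5′ UTR, chr1:45925464-45925493, − strand: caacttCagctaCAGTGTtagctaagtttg
Slc11a2 3′ UTR, chr15:100395152-100395181, − strand: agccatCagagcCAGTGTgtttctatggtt
Tfrc 3′ UTR site A, chr16:32631219-32631248, + strand: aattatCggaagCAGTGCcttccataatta
Tfrc 3′ UTR site B, chr16:32631598-32631627, + strand: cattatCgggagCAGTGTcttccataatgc
Tfrc 3′ UTR site C, chr16:32631663-32631692, + strand: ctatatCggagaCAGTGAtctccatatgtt
Tfrc 3′ UTR site D, chr16:32631710-32631739, + strand: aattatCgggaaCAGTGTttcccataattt

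The Fth1, Ftl1, Slc40a1 and Tfrc sites had 5 of 5 pairs, and the Slc11a2 site had 4 of 5. In the same search, 206 of 20582 genes with an annotated coding-transcript 5′ UTR held a match there (1.00%), and 872 of 20978 genes with a 3′ UTR held one (4.16%). Of the latter, Tfrc alone held 4. The remaining 5 genes had no UTR match, although Slc11a1 and Lcn2 each had a 4-pair match inside the coding sequence. Among 76 other listed iron genes, Alas2 and Hif1a matched in the 5′ UTR, and Glrx3, Cisd2 and Bach1 matched in the 3′ UTR. Matches on chromosome 18 were left out of this list. It therefore does not cover the listed genes Fech and Ftmt, which lie there.

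The annotated gene counts summed to 23826101, 19312032 and 21730342 in replicates 1, 2 and 3. Of 10 macrophage markers, 10 were detected, where detected means a TPM of at least 1 (TPM is a level scaled for transcript length and to a fixed library sum) in all 3 libraries. Their summed level lay between 4065 and 5537 TPM. Of the markers of other cells, 0 of 10 neutrophil, 0 of 6 dendritic, 0 of 7 lymphoid, 0 of 6 fibroblast and endothelial and 0 of 4 hepatocyte genes were detected, and 1 of 8 erythroid genes was (Alas2, at 2.21 ± 0.90 TPM, which is also a haem synthesis gene). Mitochondrial mRNA made up 3.67%, 5.69% and 1.87% of TPM in replicates 1, 2 and 3. Since the RNA is bulk, fewer cells of a type and less RNA per cell cannot be told apart.

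All 10 iron genes were detected, beside 42.8% of all protein-coding genes. Their median level, log2(TPM + 1), was 5.70 ± 0.28 (SD, n = 3), beside 3.25 ± 0.10 for the 9434 detected protein-coding genes. The order by mean TPM was Fth1, Ftl1, Slc11a1, Tfrc, Hmox1, Cp, Slc11a2, Slc40a1, Ireb2 and Lcn2. The 2 ferritin genes ranked 3 and 11 among the detected nuclear-encoded protein-coding genes, and Lcn2 ranked 6645. Mitochondrially encoded genes were left out of this ranking. Of the 9 neighbouring pairs in this order, 6 kept the same direction in all 3 libraries. The 3 that did not were Tfrc and Hmox1, Hmox1 and Cp, and Cp and Slc11a2, so the order within these 4 genes is not fixed beyond the spread between libraries. Among genes that are not neighbours, Slc40a1 was also above Hmox1 in replicate 2, at 38.8 beside 38.0 TPM. Over the 9 pairs, the exact two-sided sign-flip permutation p was 0.25 for the 6 that kept their direction, the smallest that 3 libraries allow, and 0.375 after Benjamini-Hochberg adjustment. No difference between genes could therefore reach 0.05 in this design.

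**Figure D1:**
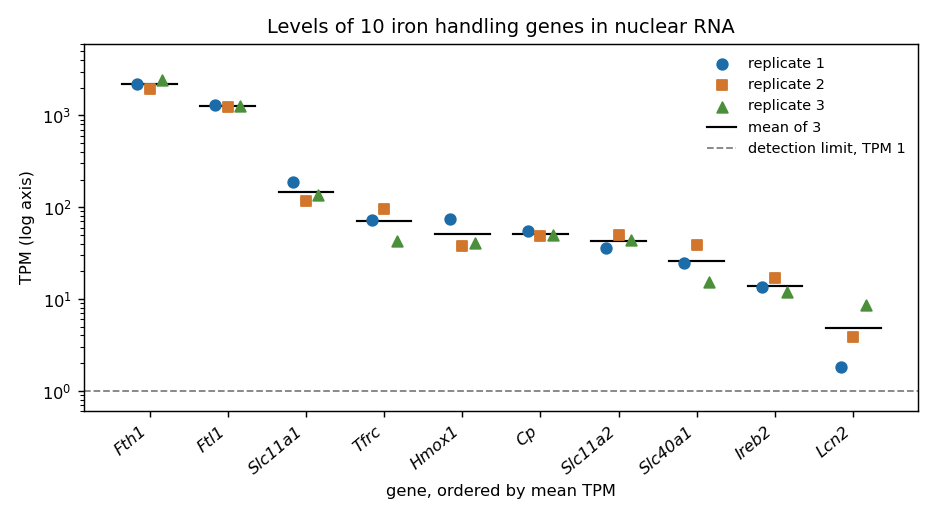
Level of each of the 10 iron handling genes in TPM on a log axis, with 1 point per library, a bar at the mean of 3 and a dashed line at the detection limit of 1 TPM. Fth1 and Ftl1 sit between 1231 and 2454 TPM, Slc11a1 lies next at 116 to 186 TPM, and Lcn2 lies lowest at 1.82 to 8.64 TPM.

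The storage genes stood far above the others. Fth1 (chr19:9980598-9985098, + strand), whose subunit carries the ferroxidase site of ferritin, had 2178, 1942 and 2454 TPM in replicates 1, 2 and 3. Ftl1 (chr7:45457944-45459884, − strand), whose subunit helps build the mineral core, had 1307, 1231 and 1264 TPM. The ranges did not overlap, and the lowest Fth1 value was above the highest Ftl1 value. Fth1 was the higher in 3 of 3 libraries, by 1.67, 1.58 and 1.94 times, and the mean difference was 0.78 ± 0.16 log2 units (SD, n = 3; exact sign-flip permutation p = 0.25, the smallest possible). Between libraries, Ftl1 varied little in deposited TPM. Its highest library was 1.06 times its lowest, and its SD of log2(TPM + 1), 0.043, was at percentile 3.14 of the detected protein-coding genes. Under median-of-ratios scaling the Ftl1 ratio was 1.24, and its SD rose to 0.172.

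Ferritin genes have many near-identical copies, whose reads the counting may have split. Of 14 other annotated genes with Fth or Ftl names, 10 had 0 in all 3 libraries. These were Ftl1-ps2 and the Fthl17 genes and pseudogenes of the X chromosome. How alike each copy is to Fth1 or Ftl1 was not examined, and copies with other names were not included. Ftl1-ps1 (chr13:74399694-74407346), annotated as protein-coding, had 13.7, 22.3 and 23.2 TPM, and its counts came to 1.49% of those of Ftl1. Fth-ps2, a processed pseudogene, had 1.58, 1.82 and 1.32 TPM. Ftl1 also shares 416 bases with Gm10252 on the opposite strand, which had 6.22, 3.24 and 6.11 TPM, and 109 bases with the miRNA gene Gm22133 on its own strand, which had at most 1 count in a library. These values are small beside those of the ferritin genes. The sources used here do not say whether the counting used strand.

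The 5′ UTR hairpin was present in most of the ferritin RNA. Isoforms that contain it held 89.6% ± 2.7 (SD, n = 3) of the TPM of Fth1 and 92.9% ± 2.5 of that of Ftl1. The coding isoform Fth1-201 made up 82.1% ± 3.4 of Fth1, at 1870, 1541 and 1992 TPM. The retained-intron isoform Fth1-208, which also contains the hairpin, added 125, 159 and 175 TPM. Ftl1-201 made up 92.3% ± 2.6 of Ftl1, at 1245, 1121 and 1145 TPM. Both genes were thus dominated by a single annotated coding isoform in every library.

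The proteins that move iron across membranes spanned a wide range of levels. Slc11a1 (chr1:74375195-74386062, + strand) encodes NRAMP1, the phagosomal metal transporter of macrophages, for which the C57BL/6 strain is known to carry a loss-of-function allele. It had 186, 116 and 136 TPM in replicates 1, 2 and 3. Slc11a2 (chr15:100387898-100425072, − strand) encodes DMT1, which takes iron out of endosomes, and had 36.0, 49.6 and 43.6 TPM. The ranges did not overlap: the lowest Slc11a1 value was above the highest Slc11a2 value. The difference between these related genes was 1.72 ± 0.57 log2 units, in the same direction in 3 of 3 libraries (n = 3; exact sign-flip permutation p = 0.25, the smallest possible). The ratio was unsteady, at 5.16, 2.35 and 3.12, because replicate 1 was highest for Slc11a1 and lowest for Slc11a2.

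On average, Slc11a1 had the lowest estimated coding share of TPM of the 10 genes in the main tables, next to Cp with 47.1% ± 5.4. In replicate 2 Cp was the lower, at 43.4% beside 47.9% for Slc11a1. The protein-coding isoforms of Slc11a1 held 43.5% ± 4.3 (SD, n = 3) of the TPM, and isoforms annotated as processed transcripts held 39.5% ± 4.5. The main coding isoform Slc11a1-201 had 79.5, 55.6 and 52.5 TPM. Slc11a1-206, a 378-base processed transcript near the 5′ end of the gene (chr1:74375572-74376890), had 49.7, 23.0 and 33.6 TPM. In expected counts, which are not scaled by length, it had only 288, 96 and 209, beside 6081, 3021 and 3565 for Slc11a1-201. The low coding share thus holds for TPM and depends on the scaling by length. Another processed transcript, Slc11a1-207, had 25.2, 16.1 and 18.9 TPM. Replicate 1 was highest for each of these 3 isoforms. Kallisto-format values, a second deposited quantification, gave Slc11a1-206 20.5% ± 1.8 of the gene, beside 23.7% ± 3.6 in the main tables.

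Slc11a2 differed from the other hairpin genes in that most of its TPM was assigned to isoforms annotated without the site. Some of these are short isoforms, such as the 718-base Slc11a2-203, that do not reach the position of the site. DMT1 mRNA is known in forms with and without the element, which differ at the 3′ end. Slc11a2-205, the sole isoform with the 3′ UTR match, had 11.7, 17.3 and 14.9 TPM. Slc11a2-201, without it, had 17.6, 22.1 and 21.7 TPM. In TPM, the site-bearing isoform was the lower in each library. It held 33.8% ± 1.2 (SD, n = 3) of the gene's TPM in the main tables and 25.6% ± 1.7 in the kallisto-format tables. In expected counts, which are not scaled by length, Slc11a2-205 had 1794, 1879 and 2005 and Slc11a2-201 had 1809, 1607 and 1967. On that scale the site-bearing isoform was the higher in replicates 2 and 3. The gene overlaps Gm5475 on the opposite strand over 2926 bases, and Gm5475 had 0.96 to 1.74 TPM.

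Tfrc (chr16:32608920-32632794, + strand), the main receptor for transferrin-bound iron, had 73.1, 94.9 and 42.4 TPM in replicates 1, 2 and 3. Slc40a1 (chr1:45908068-45926523, − strand), the known cellular iron exporter, had 24.7, 38.8 and 15.2 TPM. Both genes were highest in replicate 2 and lowest in replicate 3, so the importer and the exporter moved in the same direction between libraries. The exporter was below the receptor in 3 of 3 libraries, by -1.40 ± 0.13 log2 units (n = 3; exact sign-flip permutation p = 0.25, the smallest possible). Their ratio, Slc40a1 over Tfrc, was 0.338, 0.409 and 0.360. The share of mitochondrial mRNA, 3.67%, 5.69% and 1.87%, followed the same order of replicates, and its part in these values was not tested.

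The ratio of the highest to the lowest library was 2.55 for Slc40a1 and 2.24 for Tfrc. Together with Lcn2, they were the 3 of 10 members whose highest library exceeded 2 times the lowest, beside 6.41% of detected protein-coding genes. This limit was chosen after the values were seen. Without replicate 2, 1 of 10 passed it (Lcn2), beside 2.41% of the background, and without replicate 3 again Lcn2 alone, beside 3.65%. When TPM was rescaled over nuclear-encoded protein-coding genes, 4 of 10 passed it, with Hmox1 added, beside 5.89% of the background. Under median-of-ratios scaling, Slc40a1, Hmox1 and Lcn2 passed, beside 5.99% of the background, and the ratio of Tfrc was 1.89.

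**Figure D2:**
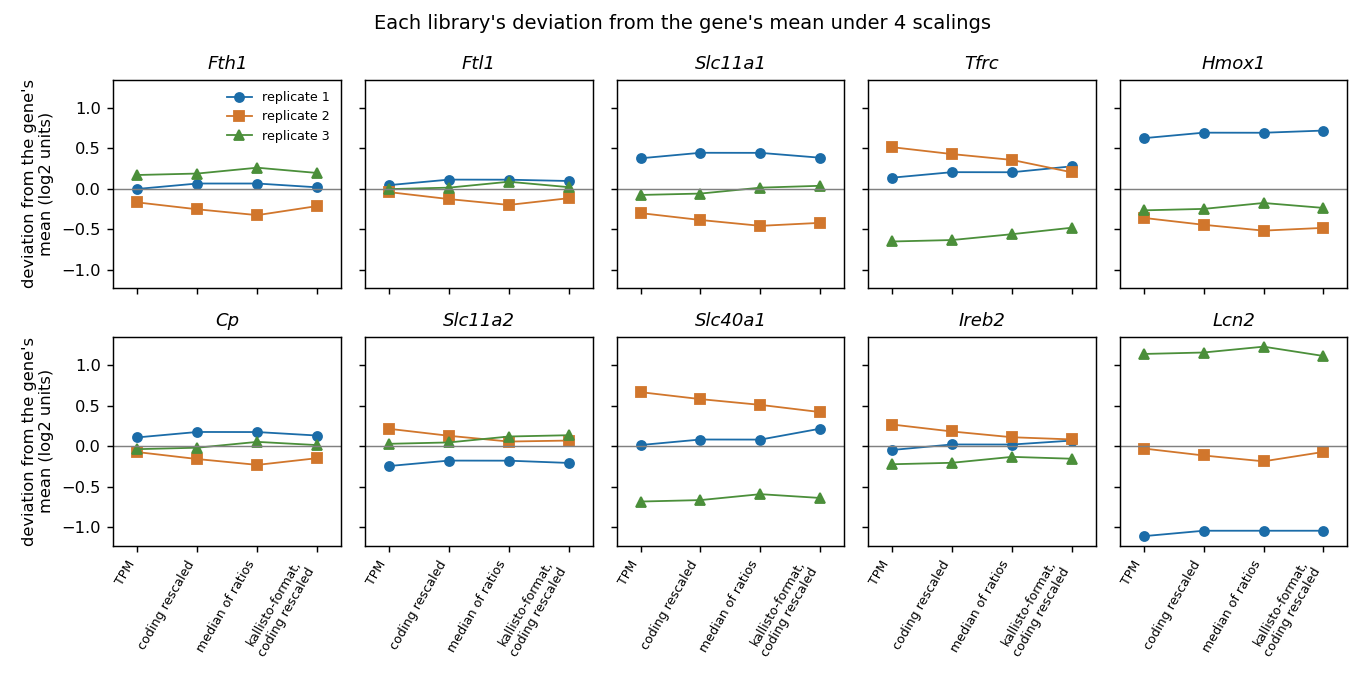
Deviation of each library from the gene's mean over 3 libraries, in log2 units, under deposited TPM, TPM rescaled over nuclear protein-coding genes, median-of-ratios scaling and rescaled kallisto-format TPM. Replicate 3 is lowest for Slc40a1 and Tfrc and highest for Lcn2 under all 4 scalings, and replicate 1 is highest for Hmox1 and Slc11a1 under all 4.

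In kallisto-format values rescaled over nuclear-encoded protein-coding genes, replicate 1 rather than replicate 2 was highest for Tfrc (deviations of 0.28 and 0.20 log2 units). Slc40a1 remained highest in replicate 2 there, by 0.42 log2 units over its mean. Replicate 3 was lowest for both genes in these values too, by 0.64 log2 units below the mean for Slc40a1 and 0.48 below for Tfrc. The low level in replicate 3 was thus common to both genes under all 4 scalings, and the peak of Tfrc in replicate 2 was not.

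Most of the estimated Slc40a1 and Tfrc RNA contained the hairpin sites. Isoforms with the 5′ UTR site held 96.2% ± 2.4 (SD, n = 3) of Slc40a1 TPM. Isoforms with the 4 sites held 87.3% ± 7.0 of Tfrc TPM. The kallisto-format tables gave lower shares of 70.1% ± 4.4 and 65.7% ± 12.3. For Slc40a1, the difference was largely in Slc40a1-207, a 263-base processed transcript without the site, listed at 0 TPM in all 3 libraries of the main tables and holding 25.7% ± 4.1 in the kallisto-format ones. For Tfrc it was in the 166-base Tfrc-203, with 3.2% ± 5.5 and 24.7% ± 11.3. In these 2 genes, short isoforms were thus where the deposited quantifications differed most in share.

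Tfrc also carried a large share of RNA assigned to a retained-intron isoform. Tfrc-204, which spans the last part of the gene and the 4 matched hairpin sites (chr16:32624442-32632790), had 19.5, 38.4 and 10.6 TPM. The coding isoform Tfrc-201 had 46.7, 48.8 and 23.0 TPM. Replicates 1 and 2 were close in the coding isoform, whereas Tfrc-204 was highest in replicate 2. Its share of the gene was 30.8% ± 8.4 (SD, n = 3) in the main tables and 11.6% ± 8.8 in the kallisto-format ones. Slc40a1-201, the coding ferroportin isoform, had 17.6, 27.3 and 10.3 TPM, and the retained-intron isoform Slc40a1-208 had 4.75, 7.04 and 2.81 TPM. Both Slc40a1 isoforms followed the order of the gene.

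Cp (chr3:19957054-20009145, + strand) encodes the copper ferroxidase that acts beside ferroportin, and is best known as a plasma protein made by hepatocytes. It had 54.5, 48.1 and 49.3 TPM in replicates 1, 2 and 3. The libraries differed by no more than 1.13 times, and the 4 hepatocyte markers summed to between 0 and 0.07 TPM. Slc40a1 was below Cp in 3 of 3 libraries and the ranges did not overlap, but the difference varied, at -1.11, -0.30 and -1.63 log2 units (mean -1.01 ± 0.67, n = 3; exact sign-flip permutation p = 0.25, the smallest possible). Replicate 2, where Slc40a1 was highest, gave the smallest difference.

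Cp was the member whose RNA was least concentrated in a single isoform. It has 16 annotated isoforms, and the highest, the coding isoform Cp-202, held 22.2% ± 4.1 (SD, n = 3) of the TPM at 9.86, 12.6 and 10.9 TPM. The retained-intron isoforms Cp-209 and Cp-211 had 8.26, 5.33 and 7.25 TPM and 6.15, 5.11 and 4.61 TPM. Cp overlaps Hps3 on the opposite strand over 13201 bases, and Hps3 had 32.7, 37.7 and 32.1 TPM, and the strand setting of the counting is unknown. The exons of 1 Cp isoform, Cp-201, share 108 bases with exons of Hps3, and Cp-201 held 4.51% ± 1.27 of the TPM.

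Hmox1 (chr8:75093621-75100589, + strand), whose enzyme opens the haem ring and releases its iron, had 75.1, 38.0 and 40.5 TPM. Replicate 1 stood above the others, at 1.98 times the lowest library, while replicates 2 and 3 were close. The coding isoform Hmox1-201 held 98.0% ± 1.6 (SD, n = 3) of the TPM, the highest such share among the 10 genes. Blvrb, which reduces biliverdin in the next step of haem breakdown, had 44.6, 26.0 and 27.2 TPM. Slc48a1, a haem transporter of the phagolysosome, had 36.2, 26.1 and 20.2 TPM and was chosen after its values were seen. Both had their highest level in replicate 1, as Hmox1 did, and Hmox2, the constitutive haem oxygenase, had 25.2, 28.9 and 26.6 TPM. Blvra, the other biliverdin reductase, had 18.3, 16.6 and 17.0 TPM. Hmox2 and Blvra were also chosen after their values were seen. Trf and Alas1, listed under other roles, were highest in replicate 1 too. The share of all genes with this order was not computed, and a link with Hmox1 was not tested.

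Ireb2 (chr9:54863789-54912530, + strand), whose protein binds the hairpins when cellular iron is low, had 13.4, 16.7 and 11.9 TPM. Its libraries lay within 1.40 times of each other. Ireb2-201, the coding isoform, had 10.9, 13.5 and 10.2 TPM, and the retained-intron isoform Ireb2-202 had 2.52, 3.22 and 1.72 TPM. The other iron-regulatory protein is encoded by Aco1, which is also cytosolic aconitase, and had 7.54, 9.64 and 7.02 TPM. Fbxl5, the ubiquitin ligase subunit that marks iron-regulatory protein 2 for degradation, had 14.1, 14.7 and 11.2 TPM. Replicate 3 was lowest for these 3 genes.

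Lcn2 (chr2:32384633-32388252, − strand) encodes a secreted protein that binds bacterial iron carriers and is well known as a target of Toll-like receptor signalling. It had the lowest level of the 10 genes and the widest spread, with 1.82, 3.85 and 8.64 TPM in replicates 1, 2 and 3. Replicate 3 was 4.75 times replicate 1, and the SD of log2(TPM + 1) was at percentile 99.7 of the detected protein-coding genes. Its mean was 4.77 ± 3.50 TPM (SD, n = 3), and 2.83 TPM without replicate 3. The values rest on 46, 67 and 199 expected counts. The exact Poisson 95% intervals of these counts, which cover counting error only, were 34 to 61, 52 to 85 and 172 to 229. The interval of replicate 3 did not overlap the others, while those of replicates 1 and 2 did. Lcn2 is also made by neutrophils, of whose 10 markers 0 were detected. They summed to 3.79, 2.34 and 1.55 TPM in replicates 1, 2 and 3, in replicate 1 mostly from S100a8 and S100a9, and Elane, Ly6g and Retnlg were at 0 in all 3 libraries. Single markers did not all follow the sum, as Mpo had 0.04, 0.07 and 0.08 TPM. Their part in the Lcn2 values was not tested.

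Nuclear RNA contains incompletely spliced transcripts, so the share of each gene assigned to isoforms annotated as retaining an intron was compared across the members. The annotation holds no full unspliced precursor, and a read in an intron can be assigned only to an isoform that contains that stretch. All 10 genes have at least 1 such isoform. The highest shares of TPM were those of Cp, with 55.2%, 56.6% and 46.4% in replicates 1, 2 and 3, and Tfrc, with 36.1%, 48.5% and 36.2%. Slc40a1 had 27.6%, 25.6% and 26.0%. The lowest were those of Hmox1, with 1.69%, 0.53% and 3.75%, and Slc11a2, with 2.02%, 2.78% and 3.78%. The remaining 5 genes had means of 7.1% to 18.1%.

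Cp alone had over 50% on average, 1 of 10 members beside 12.8% of the 5980 detected nuclear-encoded protein-coding genes with such an isoform. As a share of expected counts, which are not scaled by length, Cp had 31.5% ± 3.2 (SD, n = 3) rather than 52.7% ± 5.5. The median over the members was 17.4% ± 1.8 and that over the 5980 genes 24.0% ± 0.4. Of the members, 3 of 10 lay above the median of all genes in the main tables (Cp, Tfrc and Slc40a1) and 1 of 10 in the kallisto-format tables (Cp). Tfrc fell from 40.3% ± 7.2 in the main tables to 21.1% ± 7.9 in the kallisto-format ones. As shares of expected counts, the medians were 15.8% ± 1.1 for the members and 13.5% ± 0.1 for all genes, so the members' median lay below that of all genes on the TPM scale and above it on the count scale.

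**Figure D3:**
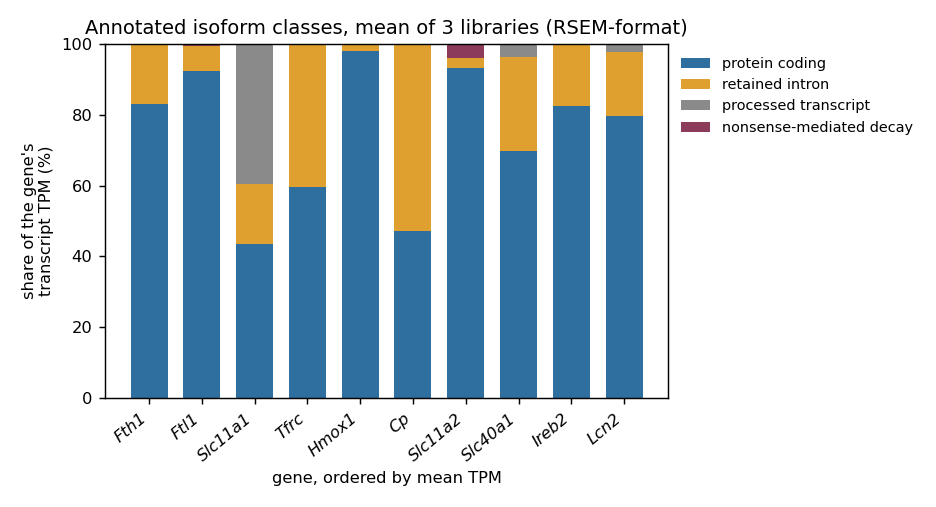
Share of each gene's transcript TPM in 4 annotated isoform classes, as the mean of 3 libraries, with bars stacked from 0 to 100%. Coding isoforms hold 98.0% of Hmox1 and 92.3% of Ftl1 but 43.5% of Slc11a1 and 47.1% of Cp.

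The wider iron pathway was described with 76 further genes in 9 role lists, of which 49 were detected (64.5%). The share of all protein-coding genes detected was 42.8%, and each list count below is to be read beside it. No gene of the export and hepcidin list was detected (0 of 7), where the highest was Hamp, the hepcidin gene, with 0, 0.20 and 0.14 TPM, followed by Bmp6 with at most 0.06 TPM. Likewise 0 of 3 genes of the other siderophore and iron-sequestering list were detected (Ltf and Mpo are in the neutrophil list too), with Ltf, the lactoferrin gene, highest at 0.53, 0.69 and 0.54 TPM and Mpo next at 0.04 to 0.08 TPM. In the main quantification, Slc40a1, Cp and Lcn2 were therefore the sole detected genes among those listed for iron export and for sequestering siderophores. Haem export genes are listed separately below. Bdh2, of the siderophore list, had 0.14, 0 and 0 TPM there but 3.39, 3.31 and 0.27 kallisto-format TPM in replicates 1, 2 and 3. Its low level thus depends on the quantification.

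Of the uptake genes besides Tfrc and Slc11a2, 5 of 12 were detected (41.7%), close to the 42.8% of all protein-coding genes. Trf, the plasma iron carrier transferrin, led with 55.2, 41.9 and 48.4 TPM, Mcoln1, a lysosomal cation channel, had 28.1, 49.5 and 33.6 TPM, and Slc39a14, the transporter ZIP14, was the lowest detected at 5.14, 4.0 and 2.95 TPM. Of the storage and chaperone genes, 5 of 6 were detected, and all of them were far below the ferritin subunits. Pcbp2, an iron chaperone and RNA-binding protein, had 67.7, 68.1 and 60.3 TPM, and Glrx3 was the lowest detected at 7.02, 7.97 and 5.69 TPM. Ncoa4, the receptor that delivers ferritin to lysosomes, had 29.3, 62.0 and 49.9 TPM, lowest in replicate 1.

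All 4 other genes of the iron-regulatory protein system were detected, from Aco1 and Skp1a up to Cul1 with 12.3, 13.3 and 12.0 TPM and Fbxl5. Of the haem uptake, breakdown and export genes, 8 of 12 were detected. Lrp1, which takes up haem bound to haemopexin among many other ligands, had 318, 262 and 268 TPM, above every member but the ferritins, and Abcg2 was the lowest detected at 1.12, 1.15 and 1.09 TPM. Of the haem synthesis genes, 8 of 9 were detected, and each was below Hmox1 in mean level. Alas1, the enzyme of the committed step outside erythroid cells, led with 23.7, 18.2 and 20.5 TPM, Ppox had 11.1, 12.0 and 10.3 TPM, and Cpox was the lowest at 1.72, 3.01 and 1.69 TPM.

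Of the mitochondrial iron and iron-sulphur cluster genes, 12 of 14 were detected. The mitochondrial iron importers led: Slc25a37 had 30.1, 35.9 and 31.6 TPM and Slc25a28 had 19.2, 20.1 and 19.2 TPM, and Abcb10 was the lowest detected at 1.71, 2.15 and 1.79 TPM. Of the transcription factors of iron and haem genes, 7 of 9 were detected. Nfe2l2, which encodes NRF2, an activator of Hmox1 and the ferritin genes, had 38.2, 64.7 and 46.4 TPM. Bach1, which encodes the haem-sensing repressor of Hmox1, had 20.4, 30.1 and 29.3 TPM. Both were lowest in replicate 1, where Hmox1 was highest, and a link between these levels was not tested. Ncoa4 and Mcoln1, listed under other roles, were lowest in replicate 1 too. Spic, the factor of red pulp macrophages, was the lowest detected at 2.66, 3.55 and 2.80 TPM.

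**Figure D4:**
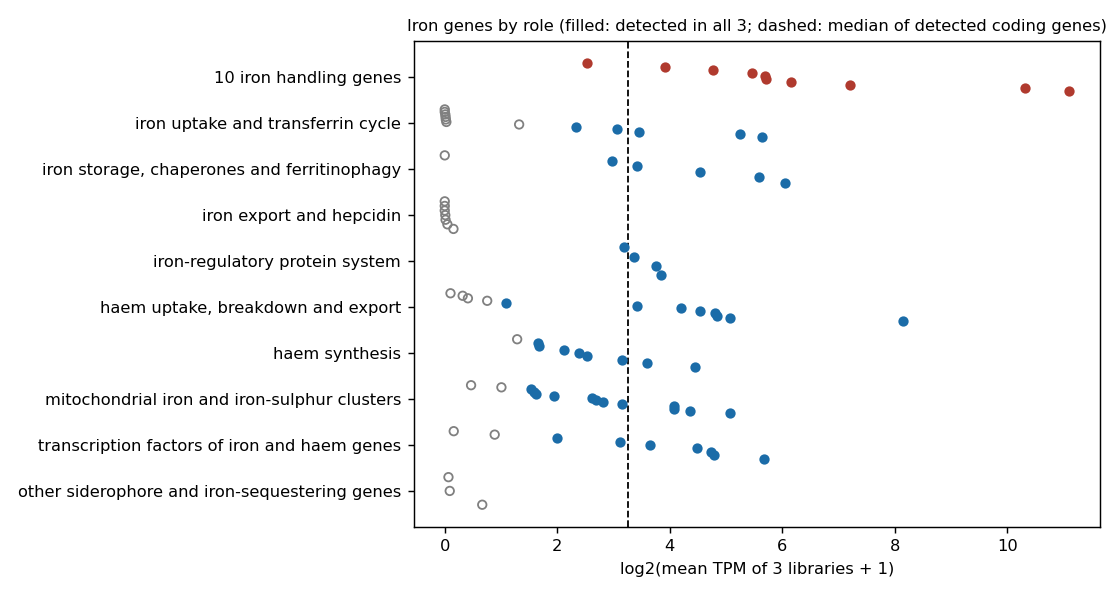
Mean level of each gene as log2(mean TPM of 3 libraries + 1), by role, with filled points for genes detected in all 3 libraries, open points for the others and a dashed line at 3.25, the median of detected protein-coding genes. The export and hepcidin list and the other siderophore list have open points only, and Fth1 and Ftl1 lie to the right of every other gene.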

How the data were processed

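Nuclear total RNA of 3 cultures in 1 group was measured. Transcriptome alignments (mm10, GENCODE M21) underlie the main gene and transcript tables, per the file headers and deposited notes. These tables are called RSEM-format, after their columns; tool and version: not given in the sources used here. In them, the authors' expected counts are estimated and not normalised. The authors' TPM, and the posterior mean TPM deposited with it, have the same sum in every library. The deposited FPKM is per length and depth. A transcript table with kallisto-like columns, derived from reads and an index per the deposited notes, also gives the authors' estimated counts and TPM. Nuclear-encoded protein-coding genes held 19.9%, 22.2% and 20.6% of TPM in replicates 1, 2 and 3, and the level of each gene depends on what the other RNAs take.

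Symbols came from the transcript identifiers, and gene positions (counted from 1), isoform classes and transcript sequences from GENCODE M21; 1 listed gene was matched by a synonym. Rows naming no gene were left out: phiX (0.827%, 0.275% and 0.0545% of expected counts), numeric identifiers (10, 22 and 24 counts) and ERCC (0 counts). Kallisto-format values were summed per gene. Levels were analysed as log2(TPM + 1), with detection at a TPM of 1 in all 3 libraries. Differences between genes were taken within each library and tested by an exact two-sided sign-flip permutation test, which was checked on simulated data. Intervals on counts are exact Poisson at 95% and cover counting error only. Alternatives covered the unit, scaling, quantification, pseudocount, detection limit and omission of each replicate. The members and lists were chosen with earlier results of these data known. The genes named were all 10 members, the 2 highest and the lowest detected gene of each other list, isoforms holding at least 10% of a member's TPM in either quantification, and ferritin-named copies; isoforms and genes outside this rule were added after their values were seen. Tools were scipy 1.17.1, numpy 2.4.6, matplotlib 3.10.9 and pandas 2.3.3 under Python 3.11.15.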

Additional observations from a re-analysis of the deposited data

Results flagged for a closer look

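A signal outside the measured genes was present in the row for phiX, a sequencing control genome, with 198647, 53233 and 11859 expected counts in replicates 1, 2 and 3, above the 3 counts that a count of 0 allows. None of the iron gene values uses this row. Outliers were not tested, since the group has 3 libraries.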

How the results depend on the processing

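The 4 tested differences between members kept their direction under each of 11 alternatives, but most of these could not reverse them. Each difference had the same sign in every library, so scaling a whole library, another pseudocount or omission of a replicate cannot turn it. Only the kallisto-format and posterior mean values could. In kallisto-format TPM, Fth1 minus Ftl1 was 0.71, Slc40a1 minus Tfrc -1.16, Slc11a1 minus Slc11a2 1.45 and Slc40a1 minus Cp -0.98 log2 units. Without each replicate in turn, Fth1 minus Ftl1 ranged from 0.70 to 0.85, Slc40a1 minus Tfrc from -1.47 to -1.34, Slc11a1 minus Slc11a2 from 1.42 to 1.98 and Slc40a1 minus Cp from -1.37 to -0.71 log2 units. Of the neighbouring pairs, Hmox1 minus Cp changed sign, from -0.05 to 0.09 without replicate 2 and 0.06 without replicate 3, and was -0.30 without replicate 1. The members' median level, 5.70, was 4.35 in kallisto-format TPM, 7.94 (TPM) and 8.06 (kallisto-format) after rescaling over nuclear-encoded coding genes, and 6.23 as a mean; the rescaled values are higher by construction. The other listed genes detected fell from 49 to 30 in kallisto-format TPM, and the cause was not tested. The members past 2 times between libraries numbered 3, 1 and 1 of 10 without replicates 1, 2 and 3. The shares of detected coding genes beside them were 2.65%, 2.41% and 3.65% (alternatives chosen after seeing the data). The members detected were 10 in each case, a count that omitting a library cannot lower. Members detected were 9 at a TPM of at least 2 and 9 in kallisto-format TPM. Kallisto-format TPM without rescaling spread far more between libraries: Fth1 had 679, 1007 and 264. No paired analysis was possible because the samples form 1 group, so there are no groups to pair; differences between genes were taken within each library. Depth limits Lcn2 most among the members.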
